A study of Mus musculus with 12 samples.

Results

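The genes described here are 41 known mouse imprinted genes, taken by symbol from the count tables and arranged in 17 imprinted domains. They are 41 of the 25316 genes listed in either table. The table at 20 weeks lists 39 of them, without Rtl1 and Magel2, and the table at 28 weeks lists all 41. RNA sequencing was done on primary podocytes, the cells that wrap the glomerular capillaries of the kidney, and the series compares mice with and without Nsd2 in podocytes during diabetic kidney disease. Controls were Cre-/Nsd2fl/fl mice and knockouts Cre+/Nsd2fl/fl mice, each at 20 and 28 weeks of age, with 3 libraries per group and 12 in all. Every group shared the floxed Nsd2 alleles and the HFD/STZ-induced diabetes model (high-fat diet and streptozotocin), so no group was free of diabetes or carried unfloxed alleles. The deletion is stated to be specific to podocytes, with the Cre promoter not given in the sources used here. Whether replicate libraries stem from different animals is not stated in the labels, and p-values therefore reflect the spread among these libraries only, which may be technical.

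Imprinted genes are expressed mainly from the allele of a single parent. They lie in domains, and within a domain a control region that carries DNA methylation on the maternal or the paternal copy, set in the egg or the sperm, governs which allele of each neighbour is active. Many imprinted genes act on fetal growth, the placenta and metabolism, and several lose most of their expression after birth. NSD2 dimethylates histone H3 at lysine 36, and methylation of this residue is among the marks read by enzymes that methylate DNA. Counts per gene do not separate the parental alleles, so each level below is the sum over both.

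Stretches of genome upstream of or between annotated starts are shown for 4 of the 5 domains in which a member was called lower at 28 weeks, since these domains carry changes described below. Capitals mark each CpG, the dinucleotide at which DNA is methylated in mammals. All are from RefSeq in build GRCm38.p6, are printed 5′ to 3′, and overlap no exon of GENCODE M21. The first is the 146 bases on the plus strand at chr7:6730432-6730577, between the divergent starts of Peg3 and Usp29. The next are the 250 bases before a RefSeq start of Mest at chr6:30737800-30738049 and of Ppp1r9a at chr6:4903061-4903310, both on the plus strand. The last is the 250 bases before the Igf2r start at chr17:12769707-12769956, on the minus strand.
Peg3 and Usp29, between starts: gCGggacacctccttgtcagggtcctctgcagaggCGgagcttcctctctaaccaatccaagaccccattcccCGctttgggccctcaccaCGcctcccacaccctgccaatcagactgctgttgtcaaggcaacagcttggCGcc
Mest, upstream: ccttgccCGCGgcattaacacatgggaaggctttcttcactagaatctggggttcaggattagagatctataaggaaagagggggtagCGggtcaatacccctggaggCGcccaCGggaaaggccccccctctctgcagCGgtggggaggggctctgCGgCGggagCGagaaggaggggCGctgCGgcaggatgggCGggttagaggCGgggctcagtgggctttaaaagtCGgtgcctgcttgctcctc
Ppp1r9a, upstream: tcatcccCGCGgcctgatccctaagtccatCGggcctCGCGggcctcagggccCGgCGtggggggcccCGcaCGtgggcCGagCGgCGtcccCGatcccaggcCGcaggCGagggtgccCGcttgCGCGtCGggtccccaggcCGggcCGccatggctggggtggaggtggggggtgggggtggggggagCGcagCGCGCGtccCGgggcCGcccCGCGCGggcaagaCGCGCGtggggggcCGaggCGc
Igf2r, upstream: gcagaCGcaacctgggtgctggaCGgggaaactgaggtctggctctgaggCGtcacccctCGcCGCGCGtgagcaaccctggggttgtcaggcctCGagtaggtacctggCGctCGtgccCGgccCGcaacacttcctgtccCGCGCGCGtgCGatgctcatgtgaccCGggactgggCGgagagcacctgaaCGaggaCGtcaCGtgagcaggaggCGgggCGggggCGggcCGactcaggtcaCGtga
The stretch between Peg3 and Usp29 holds 5 CpG, that of Mest 14, that of Igf2r 27 and that of Ppp1r9a 35. ZFP57, a zinc finger protein that keeps the methylation of many imprinting control regions, has TGCCGC as the core of its binding motif. These letters were searched on both strands and occur 2 times in the Mest stretch and not in the other 3. RefSeq promoter windows of 300 bases were matched for 34 of the 41 genes, and H19, Rtl1, Peg10, Sgce, Peg13, Trappc9 and Impact had no match. Taking the window richest in CpG for each gene, the 34 had a median of 17 CpG (range 2 to 48), and all 27025 genes of the promoter table had a median of 8. TGCCGC occurred in the window of 9 of the 34 genes (26.5%) and in 12.2% of all genes of the table. These letters contain a CpG, and the 2 shares were not compared at equal CpG content.

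Expression levels below are in normalised counts-per-million (CPM), in the order of libraries 1 to 3. Differences are log2 ratios, knockout to control, with a standard error (SE) from edgeR's quasi-likelihood test. Calls required an adjusted p below 0.05 (Benjamini-Hochberg, all genes tested at the age in question). Library totals ran from 31405349 to 38989180 counts, so a count of 0 still allows a level of up to 0.0732 to 0.0989 CPM, taking 3 counts as the limit. Nsd2 itself, on chr5:33820725-33897975, fell, and all knockout libraries were below all controls: at 20 weeks 94.2, 66.6 and 79.0 CPM against 51.7, 34.1 and 45.0 CPM (log2 -0.88, SE 0.21, adjusted p = 0.0402), and at 28 weeks 87.2, 77.6 and 80.1 against 35.2, 35.2 and 42.9 CPM (-1.11, SE 0.13, adjusted p = 0.00431). The 20 week call ended without any library other than knockout 1 (adjusted p 0.0729 to 0.164) and with a filter of 1 CPM (0.0562). The libraries differed in markers of other cells. Summed over 10 epithelial and junction markers such as Epcam and Krt8, knockout library 1 held 2230 CPM at 20 weeks and 7570 CPM at 28 weeks, against 252 and 253 CPM in knockouts 2 and 3 at 20 weeks and 70.6 and 712 CPM at 28 weeks, and controls held 3560 to 6590 CPM and 4830 to 7870 CPM. The sum of 12 smooth muscle, pericyte and mesangial markers was 4490 to 5010 CPM in controls and 10000 to 14000 CPM in knockouts at 20 weeks, and 3140 to 3330 against 7140 to 15900 CPM at 28 weeks. Of these 12 markers, 10 were called higher at 20 weeks and 2 were not called. At 28 weeks 5 were called higher and 7 were not called, with log2 values from -0.08 (Notch3) to 3.22 (Myh11). All 10 podocyte markers were detected in both tables, with sums of 476 to 938 CPM in controls and 1740 to 2340 CPM in knockouts at 20 weeks and of 788 to 1470 against 486 to 2180 CPM at 28 weeks, while Nphs1, the slit diaphragm protein nephrin, averaged 4.6 CPM in the controls at 20 weeks. Controls 2 and 3 of the 28 week group resembled each other most, with a biological coefficient of variation of 0.0483 against 0.219 to 0.41 in the other 11 pairs of 1 group.

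At each age 31 of the 41 genes had enough counts to be tested. At 20 weeks 3 of the 31 were called higher in knockouts (Cd81, Ndn and Peg13) and 4 lower (Phlda2, Meg3, Mest and Ppp1r9a). That is 22.6% of the 31, where 9.92% of the 14853 genes tested were called, 4.79% higher and 5.13% lower. At 28 weeks 3 were called higher (H19, Sgce and Ndn) and 8 lower (Phlda2, Slc22a18, Igf2r, Peg3, Usp29, Mest, Peg10 and Ppp1r9a). That is 35.5%, where 21.2% of 15011 genes were called, 9.33% higher and 11.9% lower. The median log2 fold change of the 31 was -0.15 at 20 weeks and -0.07 at 28 weeks, beside 0.01 and 0.07 over all genes tested, and 14 and 15 of the 31 values were above 0. The groups did not overlap for 16 of the 31 genes at 20 weeks and for 17 at 28 weeks, and for 32.2% and 42.2% of all genes tested. Phlda2, Mest and Ppp1r9a were called lower at both ages and Ndn was called higher at both. The 3 lower genes are 75% of those called lower at 20 weeks and 37.5% of those at 28 weeks, where over all genes the shares were 50% and 21.4%. Ndn is 33.3% of those called higher at each age, where over all genes the shares were 44.3% and 22.5%. In bulk RNA, fewer cells of a type and less RNA per cell cannot be told apart, and this holds for every difference below.

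**Figure D1:**
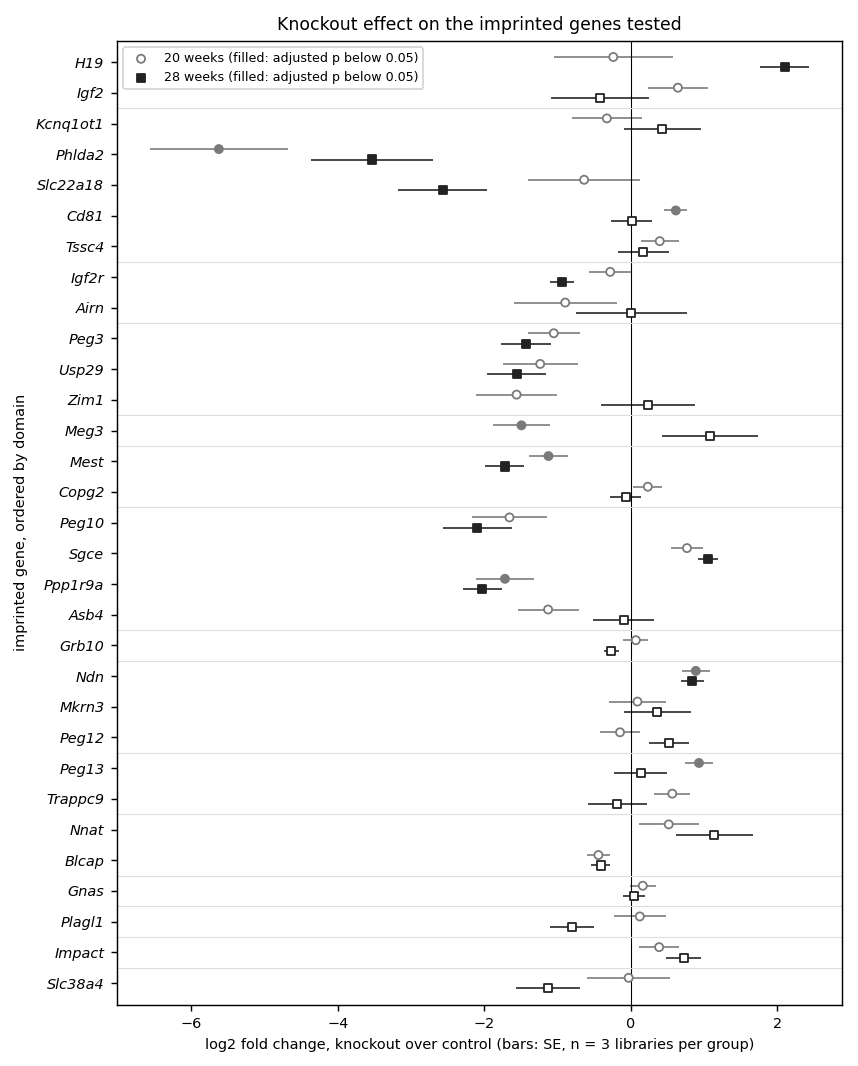
Log2 fold change of knockout over control for the 31 imprinted genes tested, ordered by domain, with bars of 1 SE and 3 libraries per group; circles are 20 weeks, squares 28 weeks, and filled symbols have an adjusted p below 0.05. Phlda2 lies farthest to the left at both ages (-5.62 and -3.53), Ppp1r9a and Mest are filled on the left at both ages, and Ndn is filled on the right at both.

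By the parent whose allele is reported as active where the gene is imprinted, 12 of the 31 tested genes were classed as maternally expressed, 16 as paternally expressed, and 3 as dependent on the tissue or transcript. These classes are background from other tissues, and the active allele in these cells was not measured. Ppp1r9a, for example, was classed as maternal though it is maternally expressed in some tissues only. Of the 12 maternally expressed genes 1 was called higher and 3 lower at 20 weeks, and 1 higher and 4 lower at 28 weeks. Of the 16 paternally expressed genes 2 were called higher and 1 lower at 20 weeks, and 2 higher and 4 lower at 28 weeks. Calls in both directions thus occurred in each class, and none of the 3 remaining genes was called.

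In the Peg3 domain on chromosome 7 both paternally expressed genes among the 41 were lower in knockouts at 28 weeks. Peg3 encodes a large zinc finger protein, active in growth and maternal behaviour, and starts 146 bases from Usp29, a gene of the ubiquitin protease family that is read in the other direction. In the 28 week libraries Peg3 (chr7:6703892-6730431, minus strand) held 246, 238 and 245 CPM in controls against 131, 48.5 and 91.3 CPM in knockouts. The controls lay within a narrow band and every knockout was below it, a log2 fold change of -1.43 (SE 0.34, adjusted p = 0.0293). Usp29 (chr7:6730578-6967219, plus strand) was scarce, at 0.64, 0.683 and 1.15 CPM in controls against 0.219, 0.33 and 0.286 CPM in knockouts. The groups did not overlap (log2 -1.56, SE 0.40, adjusted p = 0.038), and counts were only 25 to 46 in controls and 7 to 10 in knockouts. At 20 weeks Peg3 was at 283, 174 and 160 CPM in controls against 120, 53.9 and 124 CPM in knockouts, again without overlap, but it missed the threshold (log2 -1.05, SE 0.35, adjusted p = 0.105). With DESeq2 it passed (adjusted p = 0.0305). Usp29 also missed the threshold without overlap, at 1.48, 1.02 and 1.03 CPM against 0.581, 0.709 and 0.199 CPM (-1.24, SE 0.51, adjusted p = 0.179). Zim1, a maternally expressed zinc finger gene of the domain, was not called at either age, with 0.227 to 2.49 CPM over the 12 libraries. The Peg3 call at 28 weeks ended without control 1, 2 or 3 (adjusted p 0.0749, 0.0838 and 0.0887), without knockout 3 (0.071), and with controls 2 and 3 summed (0.086), with log2 values of -1.80 to -1.15 over the 6 libraries left out. That of Usp29 ended without each of the 6 libraries (adjusted p 0.0628 to 0.153, log2 -1.71 to -1.24), without a filter on low counts (0.0664) and with controls 2 and 3 summed (0.101).

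Mest, a paternally expressed hydrolase gene known as a marker of fetal mesoderm, was called lower at both ages. At 20 weeks it held 17.7, 18.9 and 12.4 CPM in controls against 9.6, 6.02 and 6.85 CPM in knockouts (log2 -1.12, SE 0.27, adjusted p = 0.0358). At 28 weeks Mest held 23.4, 21.0 and 21.3 CPM in controls against 4.33, 6.89 and 8.71 CPM in knockouts (log2 -1.72, SE 0.27, adjusted p = 0.00815). The groups were separate at both ages, and the lowest library of all was knockout 1 at 28 weeks, the knockout whose epithelial marker sum (7570 CPM) lay within the range of the controls. For Mest the 20 week call ended without control 1 (adjusted p = 0.14), control 2 (0.136), knockout 2 (0.101) or knockout 3 (0.117) and with limma on FPKM values (0.0603 and 0.0726 with pseudocounts of 1 and 0.1), while at 28 weeks Mest passed whichever library was left out (log2 -2.01 to -1.50). Copg2, which encodes a coat protein subunit of transport vesicles, overlaps Mest on the other strand, with 17.8% of its exon bases shared. It was more abundant and not called: 64.9, 76.8 and 82.9 CPM in controls against 109, 76.6 and 78.3 CPM in knockouts at 20 weeks, and 77.0, 96.1 and 100 against 112, 69.8 and 77.9 CPM at 28 weeks (log2 0.23 and -0.07, adjusted p = 0.531 and 0.852). Strand use in counting was not given in the sources used here, so reads from the shared bases of Mest and Copg2 cannot be assigned.

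**Figure D2:**
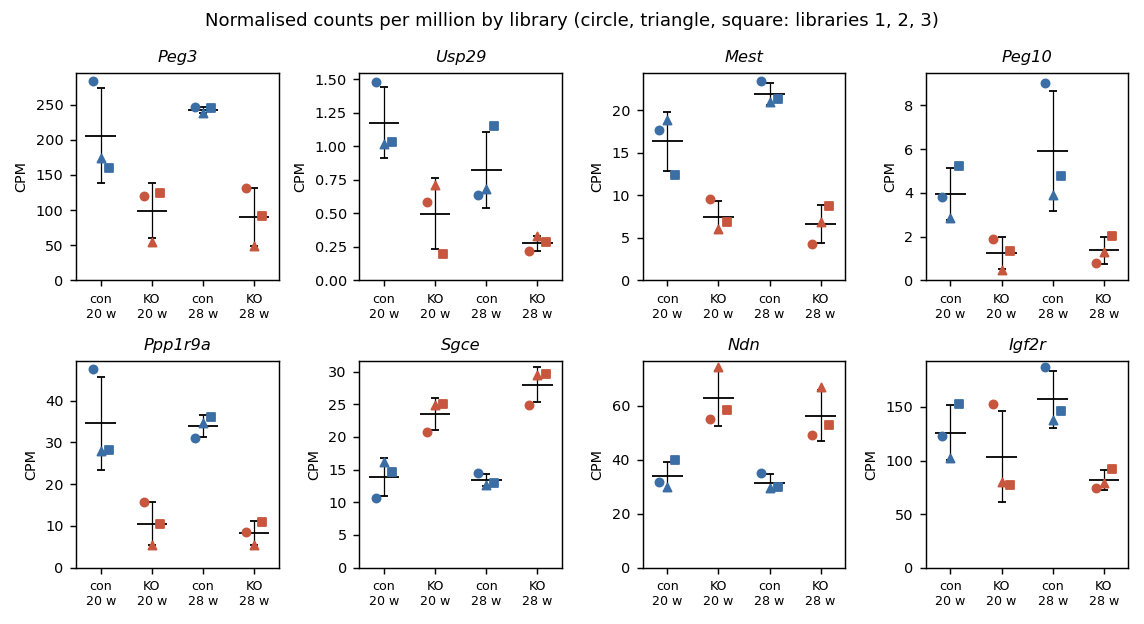
Normalised counts-per-million (CPM) of 8 imprinted genes in each of the 12 libraries, by group, with circles, triangles and squares for libraries 1, 2 and 3 and bars for the mean ± SD (n = 3). At 28 weeks all 3 knockouts lie below all controls for Peg3, Usp29, Mest, Peg10, Ppp1r9a and Igf2r, and above all controls for Sgce and Ndn.

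In the Peg10 and Sgce domain on chromosome 6, neighbours were called in opposite directions. Sgce, which encodes epsilon-sarcoglycan of the dystrophin complex, and Peg10, a gene derived from a retrotransposon and needed for the placenta, are both paternally expressed and have 98 bases between their starts on opposite strands (chr6:4674350-4747207 and chr6:4747306-4760517). At 28 weeks Sgce held 14.5, 12.7 and 13 CPM in controls against 24.9, 29.5 and 29.6 CPM in knockouts (log2 1.06, SE 0.14, adjusted p = 0.0057). Peg10 held 9.04, 3.9 and 4.77 CPM in controls against 0.815, 1.29 and 2.03 CPM in knockouts (log2 -2.10, SE 0.47, adjusted p = 0.0249). Thus every knockout library had more Sgce and less Peg10 than any control. The same arrangement was present at 20 weeks, where Sgce was at 10.6, 16.2 and 14.7 CPM in controls against 20.7, 24.9 and 25.0 CPM in knockouts, and Peg10 at 3.81, 2.84 and 5.22 CPM against 1.91, 0.482 and 1.36 CPM. Neither passed the threshold in edgeR's fit of that age (Sgce log2 0.77, SE 0.22, adjusted p = 0.0627; Peg10 -1.66, SE 0.51, adjusted p = 0.082), and both passed it with DESeq2 (adjusted p = 0.013 and 0.0094), Sgce also in 1 model of the 12 libraries (0.0199) and Peg10 also without knockout 1 (-2.09, 0.0381) and with limma on FPKM (0.0381 and 0.0475). At 28 weeks Sgce passed whichever library was left out (log2 0.97 to 1.13), and the Peg10 call ended without control 1 (-1.65, adjusted p = 0.0625), control 3 (-2.23, 0.0646) or knockout 2 (-2.04, 0.0862) and with controls 2 and 3 summed (-2.28, 0.0553).

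Ppp1r9a, in the same domain, encodes neurabin, an actin-binding partner of a protein phosphatase, and is maternally expressed in some tissues. At 20 weeks it held 47.5, 27.9 and 28.2 CPM in controls against 15.7, 5.45 and 10.4 CPM in knockouts (log2 -1.72, SE 0.39, adjusted p = 0.0326). In the older mice it held 31, 34.6 and 36.1 CPM in controls against 8.43, 5.44 and 11.0 CPM in knockouts (log2 -2.03, SE 0.27, adjusted p = 0.00577). The groups were apart at both ages, and the 28 week call was kept in every alternative run, with log2 values of -2.34 to -1.82 without each library. The 20 week call ended without control 1 (-1.42, adjusted p = 0.152), control 2 (-1.84, 0.0647), knockout 2 (-1.40, 0.0628) or knockout 3 (-1.69, 0.109), and when only genes of 1 CPM or more were tested (-1.76, 0.0525). Asb4, a maternally expressed ankyrin repeat gene, held 0.341 to 1.19 CPM and was not called.

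In the Kcnq1 domain on distal chromosome 7, Phlda2 was close to absent from the knockouts. It encodes a small pleckstrin homology protein that limits growth of the placenta, and is maternally expressed. At 20 weeks it had 96, 40 and 40 counts in controls and 3, 0 and 0 in knockouts, and at 28 weeks 48, 65 and 78 counts in controls and 11, 1 and 1 in knockouts. All knockouts were below all controls at both ages (adjusted p = 0.0108 and 0.029 in edgeR's test), and in each age the highest knockout was library 1, the one with the most epithelial marker RNA. Taken over the group, controls held 55.4 times the knockout level at 20 weeks (exact 95% interval 18.7 to 271) and 11.9 times at 28 weeks (6.8 to 22.8), intervals that cover counting error only. Without knockout 1 the level at 20 weeks was at least 36.6-fold lower, with 3 counts over the other 2 knockouts as the floor, and the ratio at 28 weeks was 52.0 (14.2 to 433). Phlda2 lost its 20 week call without control 1 (adjusted p = 0.0616) or knockout 3 (0.0519), and its 28 week call without control 1, 2 or 3 (0.0593, 0.0874 and 0.0986), knockout 2 (0.0781) or knockout 3 (0.0616) and with controls 2 and 3 summed (0.0896).

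Slc22a18, next to Phlda2 and maternally expressed, encodes a transporter of the solute carrier family. At 28 weeks it held 8.11, 6.95 and 6.62 CPM in controls against 1.98, 0.297 and 1.37 CPM in knockouts (log2 -2.57, SE 0.61, adjusted p = 0.0289). All 3 knockouts were below all controls. At 20 weeks the groups overlapped and the gene was not called: controls held 2.72, 4.68 and 4.85 CPM and knockouts 6.22, 0.823 and 0.825 CPM (log2 -0.64, SE 0.76, adjusted p = 0.679). Knockout 1, with 2230 CPM of epithelial markers against 252 and 253 CPM in the others, was above every control, and without it the difference passed the threshold (-2.30, adjusted p = 0.0108). The 28 week call ended without control 1, 2 or 3 (adjusted p 0.0758, 0.0825 and 0.0814) or knockout 3 (0.0691) and with controls 2 and 3 summed (0.0814), with log2 values of -3.09 to -2.13 over the 6 libraries left out.

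**Figure D3:**
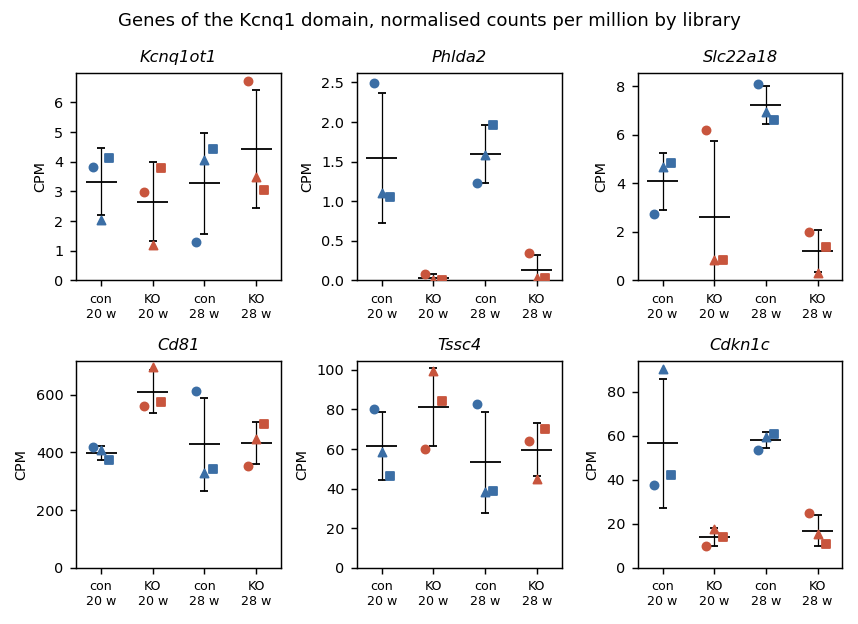
Normalised counts-per-million (CPM) of 6 genes of the Kcnq1 domain in each library, by group, with circles, triangles and squares for libraries 1, 2 and 3 and bars for the mean ± SD (n = 3). Phlda2 and Cdkn1c are lower in all knockouts than in all controls at both ages, Slc22a18 at 28 weeks only, and Kcnq1ot1 and Tssc4 overlap at both ages.

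Cd81, a tetraspanin of the plasma membrane and the most abundant of the 41 genes per length (mean 307 FPKM in the deposited values, fragments scaled to gene length and library total), was higher in knockouts at 20 weeks. Controls held 417, 407 and 372 CPM and knockouts 562, 697 and 574 CPM, with no overlap (log2 0.62, SE 0.16, adjusted p = 0.0471). This call ended without each of the 6 libraries (adjusted p 0.0513 to 0.143, log2 0.52 to 0.69), without a filter (0.0599), with limma on FPKM (0.0554 and 0.0515) and in 1 model of the 12 libraries (0.13). At 28 weeks control 1 held 613 CPM and controls 2 and 3 held 329 and 341 CPM, knockouts held 354, 446 and 497 CPM, and the groups overlapped (log2 0.02, SE 0.28, adjusted p = 0.976). Kcnq1ot1, the paternally expressed long RNA that silences its neighbours in cis and lies antisense to Kcnq1, was not called at either age, with 42 to 214 counts and overlapping groups. Kcnq1ot1 shares exon bases with Kcnq1 on the other strand, 1.2% of its own counting all overlapping genes, and reads from these cannot be assigned without knowing the strand use. Tssc4, a factor of splicing complex assembly, held 38.1 to 99.4 CPM and was not called. Ascl2, a transcription factor of the placenta, had 11 and 12 counts in all at the 2 ages and was not tested.

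Further called genes of the same domain, taken from a list of 40 other genes reported as imprinted in at least 1 mouse tissue, were Cdkn1c and Kcnq1. Osbpl5, Nap1l4, Tnfrsf23 and Dhcr7 of that list were tested and not called at either age. Their log2 values were 0.52, 0.17, -1.21 and 0.58 at 20 weeks and 0.21, 0.36, -0.94 and -0.11 at 28 weeks. Cdkn1c, which encodes an inhibitor of cyclin-dependent kinases made in mature podocytes, held 37.5, 90.2 and 42.0 CPM in controls against 9.68, 17.7 and 14.1 CPM in knockouts at 20 weeks (log2 -2.03, SE 0.38, adjusted p = 0.0162). The 28 week libraries held 53.7, 59.5 and 60.7 CPM in controls against 24.8, 15.1 and 10.7 CPM in knockouts (-1.78, SE 0.31, adjusted p = 0.0108). All knockouts were below all controls at both ages, and of the 12 calls with 1 library left out only that without knockout 3 at 20 weeks missed the threshold (adjusted p = 0.0724). Kcnq1, an epithelial potassium channel gene, held 20.9, 13 and 11.8 CPM in controls against 0.502, 0.0989 and 0.0286 CPM in knockouts at 28 weeks, 73.8 times more in controls by summed level (exact 95% interval 47.6 to 121, counting error only; adjusted p = 0.00607). Without knockout 1 this ratio was 248 (96.6 to 911). At 20 weeks knockout 1 held 5.06 CPM of Kcnq1, within the 4.33 to 6.96 CPM of the controls, and knockouts 2 and 3 held 0.0284 and 0.569 CPM. Kcnq1 was not called there (log2 -1.62, adjusted p = 0.432) but was without knockout 1 (-4.26, adjusted p = 0.0128).

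Igf2r, a maternally expressed receptor that clears the growth factor IGF2 and carries lysosomal enzymes, was lower in knockouts at 28 weeks. It held 187, 138 and 146 CPM in controls against 74.2, 79.3 and 91.8 CPM in knockouts, without overlap (log2 -0.94, SE 0.16, adjusted p = 0.0102). This call was kept without each library (log2 -1.08 to -0.80). At 20 weeks controls held 123, 102 and 153 CPM and knockouts 153, 80.4 and 77.5 CPM, so knockout 1 was level with the highest control and Igf2r was not called (log2 -0.28, SE 0.29, adjusted p = 0.63). Airn, the paternally expressed RNA antisense to Igf2r that silences it in the embryo, was not called, with 0.255 to 2.38 CPM and overlapping groups at both ages.

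H19, a long RNA of the fetus that is maternally expressed and largely shut off after birth, had the largest called increase of the 41. At 28 weeks it held 1.43, 2.12 and 1.46 CPM in controls against 7.53, 9.33 and 4.71 CPM in knockouts (log2 2.10, SE 0.34, adjusted p = 0.00904). Every knockout was above every control. The call was kept without each library (log2 1.84 to 2.31) and missed the threshold in 1 model of the 12 libraries (2.07, adjusted p = 0.0733). At 20 weeks H19 held 1.27, 1.79 and 12.6 CPM in controls against 5.23, 5.56 and 2.47 CPM in knockouts and was not called (-0.24, SE 0.81, adjusted p = 0.897). Control 3 was above all knockouts and the other controls below them, and without control 3 the log2 value was 1.53. In leukocyte markers control 3 at 20 weeks also stood above the other controls, with a sum of 348 CPM against 72 and 95.2 CPM. At 28 weeks knockouts held 608 to 831 CPM of these markers against 70.5 to 87.5 CPM in controls. The sum does not describe each marker. Of the 8 tested, 0 were called at 20 weeks. At 28 weeks 4 were called higher (Lyz2, Adgre1, Tyrobp and Fcer1g) and 4 were not called. The part of leukocytes in the H19 values was not tested. Igf2, the paternally expressed fetal growth factor, was at 0.125 to 0.717 CPM, was not called, and shares 64.5% of its exon bases with other annotated genes.

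In the Snrpn domain on chromosome 7, Ndn was called higher at both ages. Ndn encodes necdin, a MAGE family protein that restrains the cell cycle in neurons and other cells, and is paternally expressed. At 20 weeks it held 31.8, 29.9 and 39.9 CPM in controls against 55.1, 74.4 and 58.5 CPM in knockouts (log2 0.89, SE 0.19, adjusted p = 0.0273). At 28 weeks it held 35.1, 29.4 and 29.7 CPM in controls against 49.0, 66.9 and 52.9 CPM in knockouts (0.84, SE 0.16, adjusted p = 0.0148). Every knockout library was above every control at both ages, and library 2 was the highest of the knockouts each time. That library also held the most smooth muscle, pericyte and mesangial marker RNA at both ages, 14000 and 15900 CPM. At 28 weeks these markers did not all move together, as given above. The part of cells that carry them in the Ndn values was not tested. Ndn lost its 20 week call without control 1 (0.82, adjusted p = 0.0937), control 2 (0.83, 0.113), knockout 2 (0.75, 0.0597) or knockout 3 (0.96, 0.0638), and the 28 week call without control 2 (0.79, 0.0703) or control 3 (0.80, 0.0721) and with these summed (0.80, 0.0701). Mkrn3 and Peg12, neighbours of Ndn that are also paternally expressed, held 1.0 to 3.32 CPM and 1.78 to 3.53 CPM and were not called. Snrpn had 3 and 2 counts in all at the 2 ages, and Magel2 had 1 count at 28 weeks.

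Peg13, a paternally expressed noncoding RNA inside the Trappc9 gene on chromosome 15, was higher in knockouts at 20 weeks. Controls held 13.4, 14.0 and 11.1 CPM and knockouts 22.1, 27.6 and 23.8 CPM, with no overlap (log2 0.93, SE 0.19, adjusted p = 0.0214). The call ended without control 1, 2 or 3 (adjusted p 0.0707, 0.073 and 0.0696), knockout 2 (0.0565) or knockout 3 (0.0609) and in 1 model of the 12 libraries (0.0777), with log2 values of 0.84 to 1.01 over the libraries left out. At 28 weeks the groups overlapped, with 20.5, 11.7 and 11.8 CPM in controls against 9.34, 20.0 and 19 CPM in knockouts (log2 0.14, SE 0.36, adjusted p = 0.836). Trappc9, which encodes a vesicle tethering subunit, was not called. At 20 weeks it held 29.9, 27.2 and 24.2 CPM in controls against 34.8, 55.4 and 30.3 CPM in knockouts (0.57, SE 0.24, adjusted p = 0.198), and at 28 weeks 46.2, 20.4 and 18.8 against 18.5, 24.2 and 32.6 CPM (-0.18, SE 0.40, adjusted p = 0.794).

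The Dlk1 and Dio3 domain on chromosome 12 was read mainly through Meg3, its maternally expressed long RNA. At 20 weeks Meg3 held 1.84, 1.24 and 1.92 CPM in controls against 0.692, 0.426 and 0.654 CPM in knockouts (log2 -1.49, SE 0.39, adjusted p = 0.0491). The 28 week libraries held 0.333, 0.439 and 0.728 CPM in controls against 1.16, 0.297 and 1.71 CPM in knockouts, with overlap (1.08, SE 0.66, adjusted p = 0.304). The knockouts were thus all below the controls at 20 weeks, and at 28 weeks 2 of 3 were above them. The 20 week call ended without each of the 6 libraries (adjusted p 0.0679 to 0.151, log2 -1.65 to -1.30), without a filter (0.0767) and in 1 model of the 12 libraries (0.104). Dlk1, Rtl1, Dio3 and Begain had at most 9 counts in all at either age and were not tested. Rian, a further gene of this domain from the list of 40, was tested and not called. Its log2 value was -1.10 at 20 weeks (SE 0.473, adjusted p = 0.194) and 1.02 at 28 weeks (SE 0.535, adjusted p = 0.237).

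The remaining domains held abundant genes that were not called at either age. Gnas, which encodes the stimulatory G protein alpha subunit, held 1120, 1250 and 1130 CPM in controls against 1180, 1580 and 1170 CPM in knockouts at 20 weeks (log2 0.16, SE 0.17, adjusted p = 0.637) and 1280, 995 and 1010 against 1030, 1180 and 1170 CPM at 28 weeks (0.04, SE 0.15, adjusted p = 0.886). Gnas shares 22% of its exon bases with genes on the other strand, Nespas among them, and the same limit on strand holds for it. Grb10, an adaptor that dampens insulin receptor signalling, held 150, 145 and 178 CPM in controls against 191, 144 and 161 CPM in knockouts at 20 weeks (0.07, SE 0.17, adjusted p = 0.857). At 28 weeks Grb10 was lower in every knockout, 176, 161 and 156 against 135, 142 and 132 CPM, but missed the threshold (-0.27, SE 0.10, adjusted p = 0.121). Blcap, a small membrane protein gene around Nnat, was below all controls in every knockout at both ages without a call. It held 84.0, 71.9 and 73.9 CPM against 62.0, 57.1 and 50.1 CPM at 20 weeks (-0.44, SE 0.16, adjusted p = 0.132), and 85.1, 77.8 and 73.2 CPM against 58.0, 52.3 and 67.1 CPM at 28 weeks (-0.41, SE 0.13, adjusted p = 0.0739). At 28 weeks Grb10 and Blcap both passed with limma on FPKM (adjusted p = 0.0337 for each with a pseudocount of 1), and Blcap also in 1 model of the 12 libraries (0.0484) and without knockout 3 (-0.56, adjusted p = 0.0304).

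Plagl1, a zinc finger regulator of other imprinted genes, held 36.6, 29.6 and 28.3 CPM in controls against 28.7, 19.3 and 54.9 CPM in knockouts at 20 weeks (log2 0.12, SE 0.35, adjusted p = 0.876). At 28 weeks it held 56.0, 32.7 and 37.4 CPM in controls against 17.4, 32.6 and 22.4 CPM in knockouts (-0.80, SE 0.30, adjusted p = 0.109), all knockouts below all controls, with knockout 2 next to control 2. Impact, a regulator of translation under amino acid shortage, held 56.4, 48.4 and 65.9 CPM in controls against 87.9, 45.0 and 90.2 CPM in knockouts at 20 weeks (0.39, SE 0.28, adjusted p = 0.452). At 28 weeks Impact held 40.9, 43.2 and 44.8 CPM in controls against 46.7, 75.7 and 90.1 CPM in knockouts (0.72, SE 0.24, adjusted p = 0.0805), above the controls in all 3 knockouts. With DESeq2 both passed at 28 weeks (adjusted p = 0.0495 for Plagl1 and 0.0435 for Impact), and Impact also without knockout 1 (0.94, adjusted p = 0.0125). Nnat and Slc38a4, an endoplasmic reticulum proteolipid gene and an amino acid transporter gene, held 1.38 to 6.61 CPM and 0.743 to 5.01 CPM and were not called. Ddc, Nap1l5 and Rasgrf1 had 11 to 38 counts in all at either age and were not tested.

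**Figure D4:**
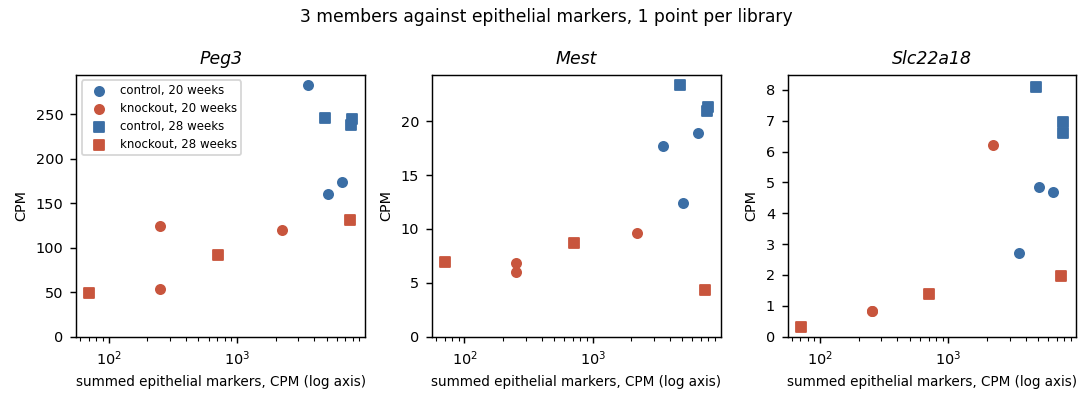
Level of Peg3, Mest and Slc22a18 in CPM (vertical axis) against the summed CPM of 10 epithelial and junction markers (horizontal log axis), 1 point per library, with blue controls, red knockouts, circles at 20 weeks and squares at 28 weeks. The red square farthest to the right in each panel is knockout 1 at 28 weeks, at 7570 CPM of markers, and it lies below all controls for Peg3 (131 CPM), Mest (4.33 CPM) and Slc22a18 (1.98 CPM).

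Epithelial marker RNA and the imprinted genes called lower were set side by side in each library. The marker sum does not describe each of the 10 markers. At 28 weeks Cdh1 was called lower (log2 -4.955, SE 0.97, adjusted p = 0.0163), and the other 9 were not called, Krt8 among them (0.25, SE 1.77). At 28 weeks knockout 1 held 7570 CPM of epithelial markers, within the range of the controls (4830 to 7870 CPM), and had less Peg3, Usp29, Mest, Peg10, Ppp1r9a, Igf2r, Phlda2 and Slc22a18 than any control, as the values above show. For Peg3, Phlda2 and Slc22a18 it was the highest of the 3 knockouts, and for Mest, Usp29, Peg10 and Igf2r the lowest. At 20 weeks knockout 1 held 2230 CPM of markers, below the 3560 to 6590 CPM of the controls. It was within or above the range of controls for Slc22a18 and Igf2r and below it for Peg3, Usp29, Mest, Peg10, Ppp1r9a and Phlda2. At 28 weeks the sum of distal tubule, collecting duct and loop of Henle markers ran likewise. It was 371 CPM in knockout 1 and 5.84 and 30.7 CPM in knockouts 2 and 3, against 245 to 621 CPM in controls. Of the 8 such markers tested there, Scnn1a, Scnn1b and Kcnj1 were called lower (log2 -4.4, -6.4 and -3.9) and 5 were not called. At 20 weeks knockout 1 did not stand apart in this sum. Knockouts held 18.8, 10.6 and 16.4 CPM against 308 to 705 CPM in controls. The part of epithelial cells in the values of the imprinted genes was not tested.

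Whether the knockout effect changed with age was tested in a model of all 12 libraries over 15662 genes. No gene was called by edgeR, and the lowest adjusted p of an imprinted gene was 0.538. At an unadjusted p below 0.05 the test gave 1428 genes, 2 of them among the 41, and DESeq2 called 25 genes and none of the 41. Those 2 were Meg3, with a difference between the effects of 2.57 on the log2 scale (SE 0.79, edgeR unadjusted p = 0.00747), and H19, with 2.33 (SE 1.02, unadjusted p = 0.0422). A call at 1 age and none at the other is therefore not shown to be a difference between ages for any of these genes. Within controls and within knockouts, 28 against 20 weeks, edgeR called 0 genes, and DESeq2 called 1 and 36. In edgeR's test 466 and 1759 genes had an unadjusted p below 0.05, of which 2 and 0 were among the 41. The 2 of the 41 in controls were Meg3 (-1.71, SE 0.56) and Peg12 (-0.70, SE 0.24), with an adjusted p of 1 in edgeR's test. Age coincides with the deposited table, so these contrasts and any difference in handling between the tables cannot be told apart.

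Factors that set or keep imprints, such as DNA methyltransferases and zinc finger proteins that bind control regions, were followed as a list of 36 genes, of which 32 were tested. At 20 weeks 0 were called higher and 1 lower, and at 28 weeks 0 higher and 5 lower. That is 3.12% and 15.6% of the 32, below the 9.92% and 21.2% called over all genes. The median log2 fold change of the list was 0 and -0.31, beside 0.01 and 0.07 over all genes. The gene called at 20 weeks was Zfp57, at 8.97, 8.43 and 8.19 CPM in controls against 4.56, 4.17 and 3.01 CPM in knockouts (-1.12, SE 0.25, adjusted p = 0.0306). Zfp57 was again below all controls at 28 weeks, 10.7, 8.46 and 9.16 CPM against 6.02, 2.84 and 5.23 CPM, without a call (-1.01, SE 0.31, adjusted p = 0.0643). It passed there with DESeq2 (adjusted p = 0.0127), with limma on FPKM (0.0284 and 0.0498), in 1 model of the 12 libraries (0.0214) and without knockout 1 (-1.23, 0.0475). The 20 week call ended without any library other than knockout 1 (adjusted p 0.0642 to 0.103).

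The 5 factors called lower at 28 weeks were Dnmt3b, Smchd1, Kdm1b, Hira and Zfp568. Dnmt3b, a DNA methyltransferase that acts on unmethylated DNA, held 4.1, 4.51 and 4.42 CPM in controls against 2.6, 1.48 and 1.91 CPM in knockouts (log2 -1.12, SE 0.27, adjusted p = 0.0324). Smchd1, a chromatin protein of the inactive X chromosome and imprinted clusters, held 69.8, 59.5 and 61.9 CPM against 28.5, 36.0 and 42.4 CPM (-0.84, SE 0.17, adjusted p = 0.0185). Kdm1b, a histone demethylase needed for imprints in the egg, held 36.4, 28.1 and 29.7 CPM against 19.8, 12.6 and 16.5 CPM (-0.95, SE 0.20, adjusted p = 0.0216). In each of these genes every knockout was below every control. Hira, a histone chaperone, held 58.8, 53.3 and 49.9 CPM against 35.4, 36.2 and 33.1 CPM (-0.63, SE 0.12, adjusted p = 0.0138). Zfp568, a zinc finger repressor that acts on Igf2 in the placenta, held 57.9, 59.9 and 63.7 CPM against 42.0, 41.9 and 48.1 CPM (-0.46, SE 0.11, adjusted p = 0.0337). With controls 2 and 3 summed all 5 calls ended (adjusted p 0.11, 0.0617, 0.0635, 0.054 and 0.123 for Dnmt3b, Smchd1, Kdm1b, Hira and Zfp568). Leaving out single libraries ended them for the 3 controls and knockouts 2 and 3 in Dnmt3b, the 3 controls and knockout 2 in Smchd1, the 3 controls in Kdm1b, control 2 in Hira, and all but knockout 3 in Zfp568, with an adjusted p of up to 0.115, 0.0671, 0.0699, 0.0627 and 0.141. The Smchd1 call also ended in 1 model of the 12 libraries (0.0994) and that of Zfp568 without a filter (0.0642).

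Of the 40 other genes reported as imprinted in at least 1 tissue, 28 were tested, with 1 called higher and 2 lower at 20 weeks and 2 higher and 4 lower at 28 weeks. That is 10.7% and 21.4% of the 28, near the 9.92% and 21.2% called over all genes. Besides Cdkn1c and Kcnq1 these were Dcn, Cpa4, Cobl and Jade1. Dcn, which encodes the matrix proteoglycan decorin and is also a fibroblast marker, held 0.596, 0.882 and 0.738 CPM in controls against 5.53, 8.43 and 11.3 CPM in knockouts at 20 weeks (log2 3.51, SE 0.37, adjusted p = 0.00286), and 0.41, 0.463 and 0.828 against 3.45, 14.6 and 7.77 CPM at 28 weeks (3.91, SE 0.62, adjusted p = 0.00875). Fibroblast and interstitial markers, of which Dcn is 1 of 8, summed to 437 to 1570 CPM in controls and 2570 to 3910 CPM in knockouts at 20 weeks, and to 471 to 1280 against 1240 to 2760 CPM at 28 weeks. These markers did not all move together. Of the 6 tested, 2 were called higher at 20 weeks, Dcn and Col1a2, and 4 were not called. At 28 weeks Dcn and Col3a1 were called higher, Pdgfra was called lower (log2 -2.55, SE 0.67, adjusted p = 0.04), and 3 were not called. Cpa4, a carboxypeptidase gene near Mest, summed to 123 counts in controls and 2 in knockouts at 20 weeks, a ratio of 58.1 (exact 95% interval 15.7 to 485; adjusted p = 0.00948), and 106 against 4 at 28 weeks, a ratio of 21.5 (8.15 to 80.3; adjusted p = 0.023). Without knockout 1 the 28 week ratio was 57.8 (10.1 to 2300). The calls of Cpa4 ended at 20 weeks without control 1 (adjusted p = 0.0532) and at 28 weeks without control 2 or 3 or knockout 2 or 3 (0.0519 to 0.0876), with limma on FPKM + 1 (0.0525) and with controls 2 and 3 summed (0.076).

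Cobl, an actin nucleator gene near Grb10, was lower at 28 weeks, at 60.5, 53.0 and 55.9 CPM in controls against 19.2, 15.0 and 20.7 CPM in knockouts (log2 -1.63, SE 0.16, adjusted p = 0.00326), and this call was kept in every alternative run. At 20 weeks Cobl was at 49.3, 40.7 and 29.2 CPM against 32.6, 23.5 and 20.9 CPM, with overlap and no call (-0.63, SE 0.25, adjusted p = 0.163). Jade1, a chromatin reader gene, was higher at 28 weeks, at 73.2, 80.0 and 82.6 CPM in controls against 107, 126 and 106 CPM in knockouts (0.53, SE 0.12, adjusted p = 0.0238). The Jade1 call ended without control 1, 2 or 3 or knockout 2 or 3 (adjusted p 0.0581 to 0.0998), in 1 model of the 12 libraries (0.132) and with controls 2 and 3 summed (0.089).

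Per length, the 41 genes spanned a wide range. Over the 12 libraries mean levels were 307 FPKM for Cd81, 142 for Gnas, 32.3 for Blcap, 29.8 for Grb10, 27.6 for Ndn, 18.4 for Copg2, 14.1 for Peg3, 13.2 for Igf2r and 10 for Sgce, and under 1 FPKM for Phlda2, Ppp1r9a, Peg10, Mest, Usp29 and Meg3. The gene length behind the FPKM values was compared with the exon bases of GENCODE M21. It ran from 0.183 times the exon bases (Sgce) to 8.074 times (Mest), with a median of 0.904 and 6 of the 41 genes over 1.5. For Mest the implied length was 31852 bases, more than its 24919 base span, so its FPKM level is not comparable with those of other genes. The same limit holds for Sgce, and for Ppp1r9a and Impact, whose implied lengths were 1.66 and 2.526 times their exon bases, so the order of levels above is that of the deposited values only. Differences between libraries do not depend on the length. Which bases were counted as Mest is not known, however, and this also limits its counts and its calls at both ages.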

How the data were processed

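The authors deposited raw read counts and, in separate tables, FPKM values for both ages, keyed by gene symbol per the file headers. The FPKM values of the authors equal the deposited counts divided by a gene length and the library total: the length implied for each gene was the same in all libraries within a relative tolerance of 1e-06. The genome build was GRCm38 (mm10), per the submitters' processing notes. Which aligner, counter, strand option and gene annotation were used was not given in the sources used here.

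Samples were grouped by the genotype and age in the labels. For each age, counts went into edgeR 4.0.16 under R 4.3.3 (quasi-likelihood F test, no block, TMM factors, default filterByExpr), with Benjamini-Hochberg adjustment over all genes tested. Unless another tool is named, adjusted p-values are from this test. SE was obtained as the absolute log2 value over the root of F, and CPM uses TMM-scaled totals. Contrasts of age used 1 model of the 12 libraries over genes in both tables. The main script was tested on simulated data. Alternatives were DESeq2 1.42.0, its size factors, no filter or 1 CPM in 3 libraries, limma 3.58.1 on log2(FPKM + 1) and log2(FPKM + 0.1), the 12-library model, a replicate block, each library left out, and controls 2 and 3 at 28 weeks summed.

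The members and gene lists were chosen with earlier results of these data known. Full values are given for members called at either age, for the member of each domain with the highest mean FPKM if at least 1, and for up to 8 called genes of each of 2 further lists; other members are given by range. Exon positions are from GENCODE M21, and promoter sequences from RefSeq. Ratios of counts have exact 95% intervals, which cover counting error only.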

Additional observations from a re-analysis of the deposited data

How the results depend on the processing

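Depth limits the scarce genes: Usp29, Phlda2, Igf2, Meg3, Asb4, Zim1, Airn and the 10 untested genes rest on few counts. Meg3, called at 20 weeks, had 252 counts in all at that age and 166 at 28 weeks. At 20 weeks 3 imprinted genes were called higher and 4 lower; with a library left out the counts ran from 0 to 2 and from 0 to 5, and all genes called (1473) from 517 to 2023. At 28 weeks the 3 higher and 8 lower became 2 to 5 and 3 to 7, and all genes called (3183) became 1266 to 3374; each such fit had fewer libraries. DESeq2 called 2401 genes at 20 weeks. With controls 2 and 3 at 28 weeks summed, 3 imprinted genes were called lower and 1299 genes in all. For the change of the knockout effect, DESeq2 called 25 genes, for age in controls 1 and for age in knockouts 36, against 0 with edgeR; with a library left out edgeR called 0 to 4 for age in knockouts and 0 for the other 2 contrasts. The replicate block gave 1 higher and 2 lower at 20 weeks, and 0 higher, 1 lower and 332 genes in all at 28 weeks. Deviations of libraries of the same number correlated by -0.1, 0.324 and -0.171 at 20 weeks and -0.566, -0.105 and -0.471 at 28 weeks. Deviations from a mean of 3 libraries are tied to one another, so these values cannot show whether the numbers pair the libraries. The losses of calls listed by gene above leave out the block. At 28 weeks the block ended the calls of Nsd2 (adjusted p = 0.0526), H19 (0.0523), Igf2r (0.0779), Mest (0.0611), Sgce (0.0637) and further genes. Ppp1r9a, Kcnq1 and Cobl kept theirs. At 20 weeks it ended those of Cd81 (0.064), Meg3 (0.0754), Mest (0.051), Ndn (0.0514) and Zfp57 (0.0518), but not Phlda2, Ppp1r9a and Peg13. No alternative that kept every library moved the median of genes tested in both fits by over 0.1 on the log2 scale. The fits with a library left out were not examined for this.

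No called effect of a gene named above changed direction in the alternatives run. Among effects that were not called, the log2 value changed sign with limma on FPKM + 1 and FPKM + 0.1 at 20 weeks for H19 (0.077 and 0.30), Grb10 (-0.026 and -0.027), Plagl1 (-0.065 and -0.091) and Smchd1 (-0.13 and -0.16), and at 28 weeks for Cd81 (-0.019 with each) and Gnas (-0.034 with each). With the replicate block it changed for H19 (0.60), Plagl1 (-0.009) and Smchd1 (-0.075) at 20 weeks, and without a filter for Hira (0.027). Cd81 at 28 weeks also changed in 1 model of 12 libraries (-0.01), and with controls 2 and 3 summed Cd81 (-0.14), Peg13 (-0.005) and Gnas (-0.024) did. With a library left out, values crossed 0 at 20 weeks for H19 (-0.72 to 1.53), Grb10 (-0.041 to 0.16), Plagl1 (-0.37 to 0.41), Smchd1 (-0.31 to 0.37), Kdm1b (-0.26 to 0.003) and Hira (-0.13 to 0.12), and at 28 weeks for Cd81 (-0.15 to 0.37), Peg13 (-0.044 to 0.45), Copg2 (-0.32 to 0.035), Trappc9 (-0.45 to 0.35) and Gnas (-0.035 to 0.17). For 28 against 20 weeks in controls H19 ran from -2.07 to 0.14. The cause of these changes was not tested.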
